A study of Homo sapiens with 4 samples.

Results

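The mRNAs of 10 golgins were followed in an immunoprecipitation of FLAG-tagged ORC1: GOLGA1, GOLGA2, GOLGA3, GOLGA4, GOLGA5, GOLGB1, GCC1, GCC2, TRIP11 and TMF1. They were taken by gene symbol, through the Ensembl identifiers of GENCODE v44, from the 63677 genes of the deposited count table. All 10 were matched, and all 10 were among the 14645 genes with enough counts to be tested. The rule used the names of the genes and no measured value, though the group was chosen with earlier results of these data known.

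RNA came from nuclei of HCT116 cells, a human epithelial line from a colorectal carcinoma. All the cells had been transfected for 48 h with pcDNA3.1-ORC1-3xFLAG, a plasmid for transient expression of ORC1, a subunit of the origin recognition complex that marks sites where DNA replication can start. Nuclear extract was precipitated without crosslinking with the FLAG antibody M2 (IP), and RNA of the extract served as Input. Each group held 2 libraries, numbered 1 and 2 after the precipitation they came from. No precipitation from untransfected cells or with a control antibody was analysed here, so IP was compared with Input only, and RNA held by beads or antibody cannot be told apart from RNA held by ORC1-FLAG. The labels do not say whether the replicates were separate cultures, so p-values measure the spread between these libraries, which may be technical.

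Golgins are long proteins that form rods of coiled coil on the surface of the Golgi apparatus. One end is fixed to the membrane, and the rod reaches into the cytoplasm to capture vesicles and to hold cisternae together. Their coding sequences are long and rich in codons for glutamate, lysine, glutamine and leucine, the residues that coiled coils favour. Small GTPases of the ARF, ARL and RAB families recruit many of them or bind along the rod.

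The members differ in the way they are fixed to the membrane. GOLGB1 (giantin, ENSG00000173230, chr3:121663199-121749966, minus strand) and GOLGA5 (ENSG00000066455, chr14:92794305-92839947, plus strand) have a membrane-spanning tail. GOLGA1 (ENSG00000136935, chr9:124878275-124948492, minus strand), GOLGA4 (ENSG00000144674, chr3:37243191-37366879, plus strand), GCC1 (ENSG00000179562, chr7:127580628-127593611, minus strand) and GCC2 (ENSG00000135968, chr2:108449107-108509415, plus strand) end in a GRIP domain, which places them on the trans-Golgi network. The others are peripheral proteins without a GRIP domain. They are GOLGA2 (GM130, ENSG00000167110, chr9:128255829-128276026, minus strand) and TRIP11 (GMAP-210, ENSG00000100815, chr14:91965991-92040896, minus strand) of the cis-Golgi, GOLGA3 (ENSG00000090615, chr12:132768902-132829143, minus strand), and TMF1 (ENSG00000144747, chr3:69019827-69052339, minus strand), which binds RAB6. Coordinates are on GRCh38 (GENCODE v44). The counts were made on hg19, so they were joined to this annotation by identifier and not by position.

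The study reported runs of GAA as enriched in RNA precipitated with endogenous and with FLAG-tagged ORC1, the latter being the experiment analysed here. From crosslinked positions and gel shift assays it concluded that the motif is not the site through which ORC1 binds RNA. In most golgins, though not in GCC1, GOLGA2 and GOLGA3, the coding sequence carries the codon GAA, for glutamate, at high density. The densest stretches are shown for 3 golgins of high enrichment (GOLGA4, TRIP11 and GOLGB1), for 1 with few GAA codons (GOLGA2) and for both golgins that were not called enriched (GCC1 and TMF1), to set side by side what the enriched and the other mRNAs look like. Each is 20 codons of coding sequence within 1 exon of the canonical transcript, read in frame on the sense strand, with the GAA codons in capitals. The exons are exon 14 of 24 for GOLGA4 (chr3:37325052-37325111, plus strand), exon 6 of 21 for TRIP11 (chr14:92015718-92015777, minus strand), exon 13 of 22 for GOLGB1 (chr3:121694553-121694612, minus strand), exon 14 of 27 for GOLGA2 (chr9:128262605-128262664, minus strand), exon 1 of 2 for GCC1 (chr7:127584325-127584384, minus strand) and exon 2 of 17 for TMF1 (chr3:69047520-69047579, minus strand).
GOLGA4: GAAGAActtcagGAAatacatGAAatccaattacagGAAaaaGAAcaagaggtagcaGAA
TRIP11: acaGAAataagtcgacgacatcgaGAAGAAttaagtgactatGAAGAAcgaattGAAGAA
GOLGB1: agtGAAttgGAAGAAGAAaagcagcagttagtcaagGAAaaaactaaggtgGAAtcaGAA
GOLGA2: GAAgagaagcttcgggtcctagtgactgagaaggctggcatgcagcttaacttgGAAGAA
GCC1: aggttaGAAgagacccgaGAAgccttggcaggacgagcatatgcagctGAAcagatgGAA
TMF1: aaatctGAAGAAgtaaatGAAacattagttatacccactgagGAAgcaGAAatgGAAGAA
GOLGA4, TRIP11, GOLGB1 and TMF1 each hold 7 GAA codons in the 20 shown, GCC1 holds 4 and GOLGA2 holds 3. Stretches across an exon border were left out, and GOLGA2 has an in-frame run of 3 GAA codons at such a border, so its spliced mRNA may hold a denser stretch. Within 1 exon, the densest stretches of GOLGA4 and of TMF1, the golgins with the highest and the lowest fold change, were alike in this number.

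Depth was 27483148 counts in IP replicate 1, 20280445 in IP replicate 2, 14677002 in Input replicate 1 and 9213877 in Input replicate 2. Levels are CPM, counts relative to the library total after trimmed mean (TMM) scaling, and fold changes are log2 of IP over Input with the standard error (SE, n = 2 libraries per group). A gene was called enriched or depleted at a Benjamini-Hochberg adjusted p below 0.05 in the edgeR quasi-likelihood test and a log2 fold change over 1 in size. The ORC1 transcript itself stood at 1108 and 18551 CPM in the IP and at 333 and 5063 CPM in the Input, so both replicate 2 libraries held far more of it than both replicate 1 libraries. Of 9 epithelial markers, 8 exceeded 1 CPM in every library, with summed levels between 2485 and 4629 CPM. The 11 markers of blood, endothelial, stromal, liver and glial cells summed to between 8.88 and 28.3 CPM, and 2 of them were at 0 in every library.

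Golgin mRNAs were more abundant in the ORC1-FLAG IP than in the Input. Of the 10 golgins, 8 were called enriched and none depleted, beside 10.5% of all tested genes called enriched and 8.3% called depleted. The 8 were GOLGA4, TRIP11, GOLGB1, GOLGA2, GCC2, GOLGA1, GOLGA3 and GOLGA5, and GCC1 and TMF1 were not called. The median log2 fold change of the golgins was 1.41, against 0.01 for all tested genes. In all 10 golgins both IP libraries exceeded both Input libraries in TMM-scaled CPM, which 33.2% of all tested genes did. Nuclei were sequenced in bulk, so the number of cells holding a transcript and its amount per cell cannot be told apart.

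**Figure D1:**
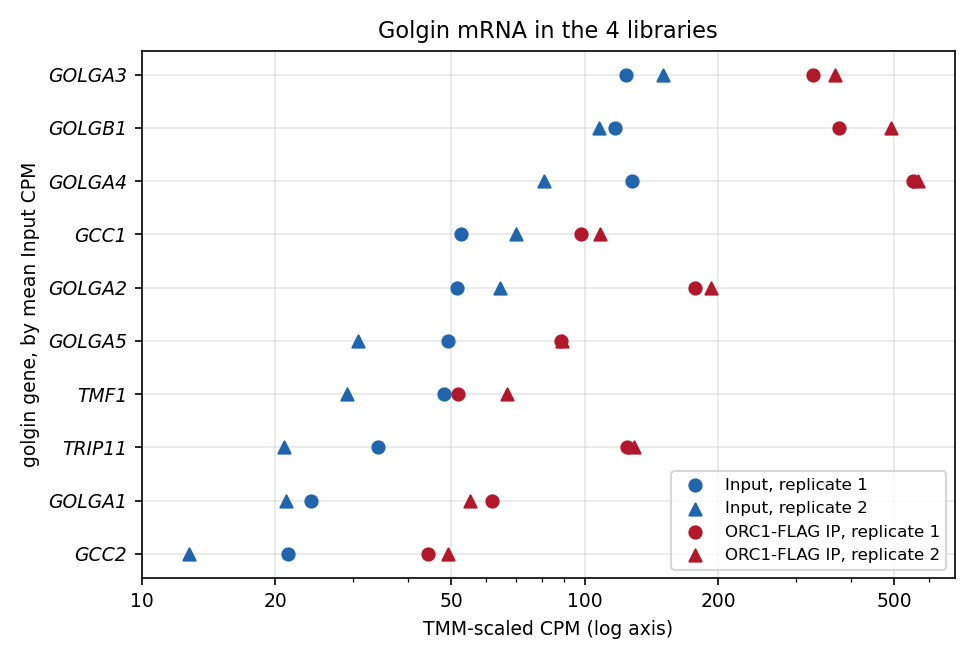
Each row is 1 golgin, ordered by mean Input level, and the x axis gives TMM-scaled CPM on a log axis, with circles for replicate 1 and triangles for replicate 2. In every row both red IP points lie to the right of both blue Input points, by the widest margin in GOLGA4 (550 and 566 against 128 and 81.0 CPM) and by the narrowest in TMF1 (51.9 and 66.9 against 48.2 and 29.0 CPM).

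Among the golgins with a GRIP domain, 3 of 4 were enriched. GOLGA4, which captures vesicles arriving at the trans-Golgi from endosomes, stood at 550 and 566 CPM in the IP and at 128 and 81.0 CPM in the Input. The IP libraries lay close together and far above the Input, and the log2 fold change was 2.42 ± 0.31 (SE, n = 2 per group, edgeR adjusted p = 0.011), or 5.34-fold. GOLGA4 had the highest fold change of the golgins and ranked at the 99.8th percentile of all tested genes.

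GOLGA1, another tether of endosome-derived vesicles, stood at 61.8 and 55.01 CPM in the IP and at 24.1 and 21.1 CPM in the Input. Its replicates gave nearly the same ratio, 1.34 and 1.36 on the log2 scale. The log2 fold change was 1.37 ± 0.22 (SE, n = 2 per group, edgeR adjusted p = 0.013).

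GCC2, a long GRIP protein of the trans-Golgi network, stood at 44.2 and 49.2 CPM in the IP and at 21.4 and 12.8 CPM in the Input. Its log2 fold change was 1.44 ± 0.29 (SE, n = 2 per group, edgeR adjusted p = 0.019). The call rested on 1 library: without Input replicate 2 the log2 fold change was 0.98, under the limit of 1.

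GCC1, a shorter GRIP protein encoded in 2 exons, stood at 98.3 and 108 CPM in the IP and at 52.7 and 70.0 CPM in the Input. The groups did not overlap in TMM-scaled CPM. The log2 fold change of 0.75 ± 0.24 (SE, n = 2 per group) had an edgeR adjusted p of 0.065. An interval of 2 SE around it ran from 0.26 to 1.24, so a change of the size called in GOLGA5 was not outside it. With the replicate number as a block, the log2 fold change was 0.76 and the edgeR adjusted p was 9.2e-04. GCC1 then missed the call by size alone.

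Both golgins with a membrane-spanning tail were enriched. GOLGB1 has the longest coding sequence of the members, 9792 bases, and bridges membranes across the Golgi stack. It stood at 375 and 492 CPM in the IP and at 117 and 108 CPM in the Input, and its log2 fold change was 1.95 ± 0.27 (SE, n = 2 per group, edgeR adjusted p = 0.011). GOLGA5, which tethers COPI vesicles within the stack, has the shortest coding sequence, 2193 bases.

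GOLGA5 stood at 88.6 and 88.7 CPM in the IP and at 49.1 and 30.8 CPM in the Input. Its IP libraries were almost equal while its Input libraries were not. The log2 fold change was 1.15 ± 0.28 (SE, n = 2 per group, edgeR adjusted p = 0.029), the lowest among the called golgins. Without Input replicate 2 it was 0.70, and the call was lost.

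Among the peripheral golgins without a GRIP domain, 3 of 4 were enriched. TRIP11, which captures vesicles at the cis-Golgi and is needed to form the skeleton, stood at 125 and 129 CPM in the IP and at 34.1 and 21.0 CPM in the Input. Its log2 fold change of 2.20 ± 0.29 (SE, n = 2 per group, edgeR adjusted p = 0.011) was the next highest after that of GOLGA4.

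GOLGA2, the cis-Golgi matrix protein that binds the tether USO1, stood at 177 and 193 CPM in the IP and at 51.5 and 64.4 CPM in the Input. The log2 fold change was 1.68 ± 0.24 (SE, n = 2 per group, edgeR adjusted p = 0.011). GAA made up 2.92% of the codons of GOLGA2, against 11.3% in GOLGA4, and whether this bears on the fold change was not tested.

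GOLGA3 stood at 328 and 368 CPM in the IP and at 124 and 150 CPM in the Input, with a log2 fold change of 1.34 ± 0.25 (SE, n = 2 per group, edgeR adjusted p = 0.015). In this golgin too the replicates agreed closely, with log2 ratios of 1.40 and 1.29.

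TMF1 was the golgin whose ratio of IP to Input differed most between the replicates. It stood at 51.9 and 66.9 CPM in the IP and at 48.2 and 29.0 CPM in the Input, so IP replicate 1 barely exceeded Input replicate 1. The log2 fold change was 0.62 ± 0.30 (SE, n = 2 per group, edgeR adjusted p = 0.179), with an interval of 2 SE from 0.01 to 1.22. The unadjusted edgeR p was 0.080, so this interval does not stand in for the test. Without Input replicate 1 the log2 fold change was 1.08, over the limit of 1, and without Input replicate 2 it was 0.15.

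The scaling of the libraries set how many golgins were called, and their place above other genes less so. Scaled by library size alone, 4 golgins were called (GOLGA2, GOLGA4, GOLGB1 and TRIP11), and the medians were 0.81 for the golgins and -0.59 for all tested genes, a distance of 1.41 against 1.40 with the trimmed mean scaling. The share of all calls that were enriched was then 10.4%, against 55.9%. With library size alone the log2 fold changes of GCC1 and TMF1 were 0.15 and 0.04. The separation of both IP from both Input libraries depends on the scaling and was looked at with TMM scaling only. Upper quartile scaling gave 7 calls, without GOLGA5, medians of 1.25 and -0.16, and a share of 41.2%. A test of whether the fold exceeded the limit itself (edgeR glmTreat) called no golgin, 7 of 10 having an unadjusted p under 0.05, and called none of all 14645 genes enriched. With the replicate number as a block, 8 golgins were again called, beside 13.4% of all tested genes.

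**Figure D2:**
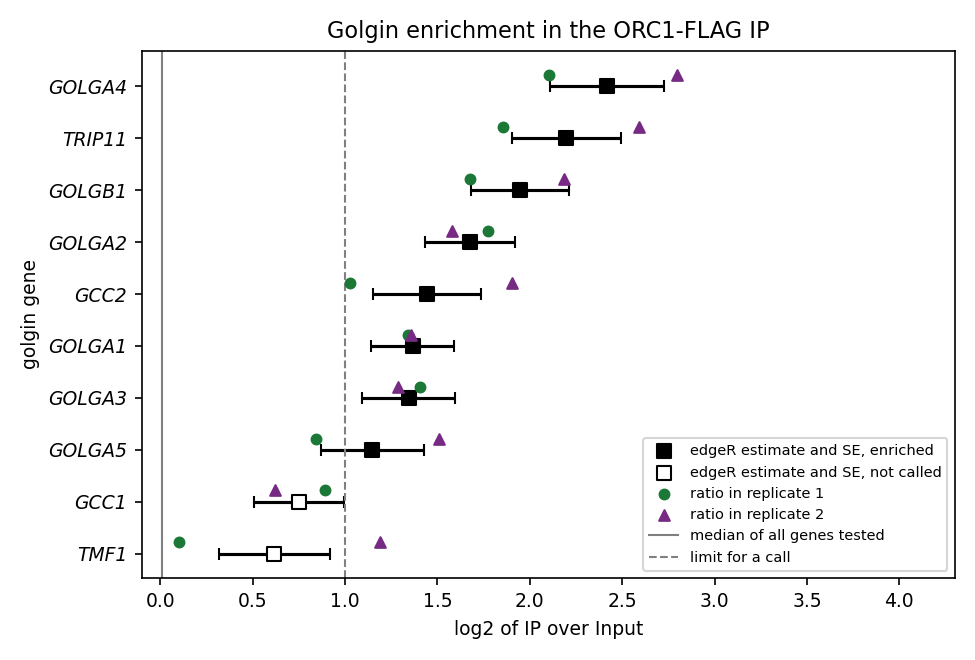
Squares and bars give the edgeR log2 fold change of IP over Input and its SE for each golgin (filled where called enriched), and circles and triangles give the log2 ratio of CPM in replicates 1 and 2. All estimates lie above the median of all tested genes (0.01), GCC1 (0.75) and TMF1 (0.62) lie left of the limit of 1, and the replicates lie far apart in TMF1 (0.10 and 1.19) and close together in GOLGA1 (1.34 and 1.36).

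In order of fold change the golgins ran GOLGA4, TRIP11, GOLGB1, GOLGA2, GCC2, GOLGA1, GOLGA3, GOLGA5, GCC1 and TMF1. Compared within each replicate, 2 of the 9 neighbouring pairs in this order kept it in both: GOLGA4 lay above TRIP11, and TRIP11 above GOLGB1. Even in these pairs the ranges over the replicates overlapped, as they did in every neighbouring pair. Over all 45 pairs, 36 were ordered the same way in both replicates, and in 28 the ranges did not overlap. GOLGA4 lay above all 9 other golgins in both replicates and TRIP11 above 8. At the other end, 7 golgins lay above GCC1 in both replicates, and 8 above TMF1. The log2 ratios of the 10 golgins in replicate 1 and replicate 2 had a Spearman rho of 0.77 (n = 10 genes, which share their libraries).

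The order of abundance was another one. Per kb of canonical transcript, GOLGA3, GCC1, GOLGA5, GOLGA4 and GOLGA2 had similar levels in the Input, between 10.4 and 17.1 CPM per kb, and their libraries overlapped. GOLGB1 lay at 10.5 and 9.64 CPM per kb and overlapped GOLGA4. TMF1 (7.01 and 4.22 CPM per kb), GOLGA1 (4.94 and 4.33), TRIP11 (3.41 and 2.10) and GCC2 (3.10 and 1.85) were the least abundant. Among these, TMF1 overlapped GOLGA1 and TRIP11 overlapped GCC2.

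In the IP, GOLGA4 stood apart at 70.4 and 72.5 CPM per kb, above every other golgin in both libraries. GOLGA2 (40.7 and 44.3 CPM per kb), GOLGA3 (36.7 and 41.1) and GOLGB1 (33.6 and 44.02) followed and overlapped each other. GCC2 remained at the lower end, at 6.40 and 7.11 CPM per kb, although it was called enriched and the more abundant GCC1 (23.8 and 26.2) was not. Across the 10 golgins, the log2 fold change had a Spearman rho of -0.31 with the Input level per kb (n = 10 genes).

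The difference between the replicates ran with the base composition of the golgins. The 6 golgins with under 45% GC in the canonical transcript (TMF1, GCC2, TRIP11, GOLGA4, GOLGB1 and GOLGA5) all had a higher ratio in replicate 2, by 0.51 to 1.09 on the log2 scale. Of the 4 with more GC (GOLGA1, GCC1, GOLGA3 and GOLGA2), 3 had a lower ratio in replicate 2, with differences of -0.12 to -0.27, and GOLGA1 differed by 0.02. Over the 10 golgins the difference had a Spearman rho of -0.95 with GC content, a relation looked at after the replicate values were seen. Input replicate 2 over Input replicate 1 ran from -0.75 to -0.12 on the log2 scale in the AT-rich golgins and from -0.19 to 0.41 in the others. IP replicate 2 over IP replicate 1 ran from -0.17 to 0.39 over all 10, and in GOLGB1 it (0.39) was larger in size than the difference in the Input (-0.12). In the 2093 tested protein-coding genes with under 40% GC, the median difference between the replicate ratios was 0.17, against -0.06 in all 12534, and the median log2 ratio of Input replicate 2 to Input replicate 1 was -0.33. In the 2579 genes with 40 to 45% GC, where GOLGB1 and GOLGA5 fall, the median difference was -0.05, about that of all genes. Depth and the amount of ORC1 transcript also differ between the replicates, and their part in this difference was not tested.

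**Figure D3:**
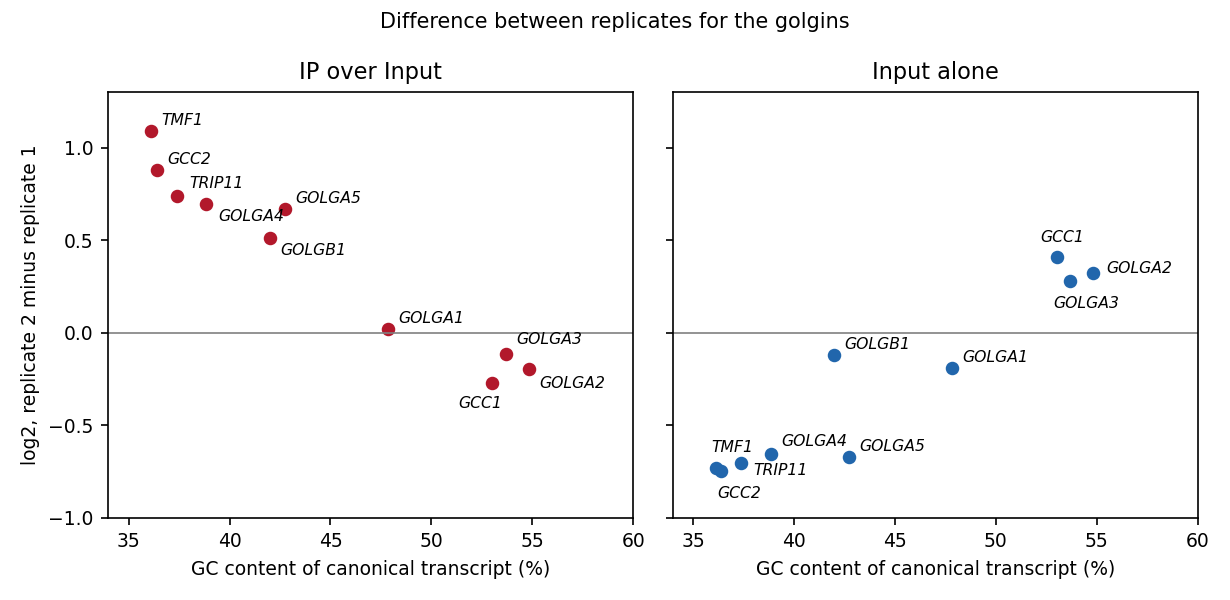
For each golgin, the y axis gives the log2 value of replicate 2 minus that of replicate 1, on the left for the ratio of IP to Input and on the right for the Input level alone, against the GC content of the canonical transcript in percent. On the left the points run down from TMF1 (36.1% GC, 1.09) to GOLGA2 (54.8% GC, -0.20), and on the right they run up from -0.73 in TMF1 to 0.32 in GOLGA2.

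Golgins have long coding sequences, and enrichment in the IP rose with coding length across all genes. The median coding length was 3887 bases in the golgins and 1433 bases in the 12534 tested protein-coding genes, over which log2 fold change and coding length had a Spearman rho of 0.59. Of the 3398 protein-coding genes with a coding sequence of at least 2193 bases, that of the shortest golgin, 30.2% were called enriched, so the 8 of 10 golgins stand beside this share as well as beside that of all genes. Within the 10 golgins the rho of log2 fold change with coding length was 0.70 (0.62 in replicate 1 and 0.68 in replicate 2, n = 10 genes).

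Set against genes of like coding length, 9 of the 10 golgins lay above the median. The protein-coding genes were divided by coding length into 10 groups of nearly equal size. The median log2 fold change rose from -0.80 in the shortest group to 1.07 in the longest, in which 46.6% of 1253 genes were enriched. GOLGA4 lay 1.35 above the median of its group, TRIP11 1.13 and GOLGB1 0.88, at the 98.6th, 96.8th and 93.0th percentiles of the longest genes. GOLGA2 lay 1.04 above the median of the next group (0.64), and GOLGA1 lay 0.92 above that of the one below (0.45). GCC2 and GOLGA3, both enriched, lay only 0.37 and 0.27 above the median of the longest group. GCC1 lay 0.30 above its group, and TMF1 lay at the median of its group, with a difference of -0.02.

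**Figure D4:**
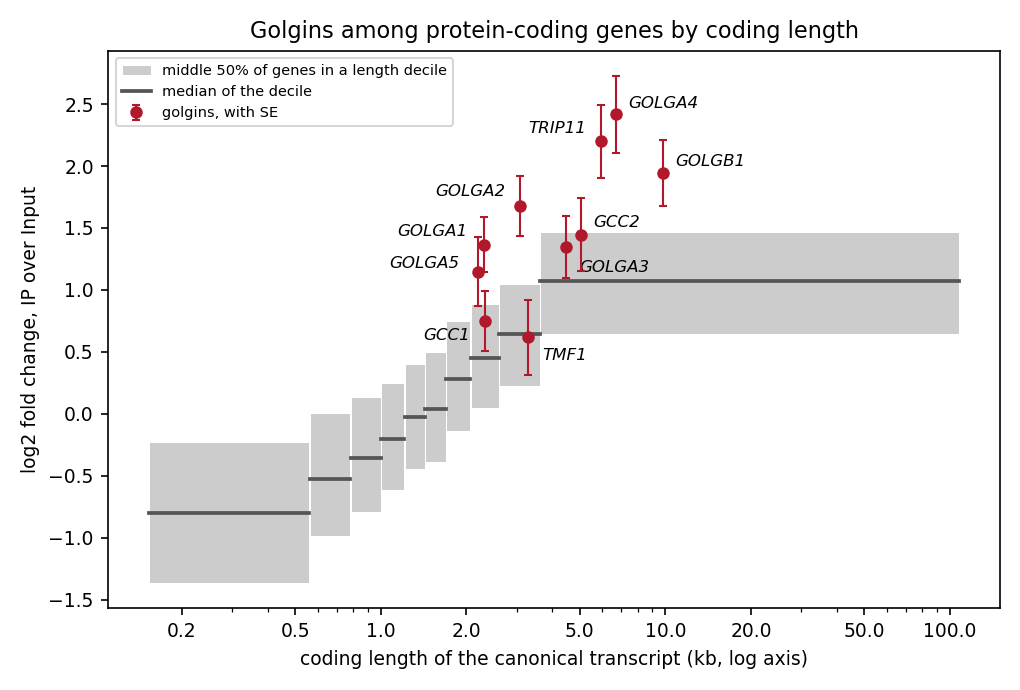
Red points give the log2 fold change and SE of each golgin against the coding length of its canonical transcript in kb on a log axis, over grey boxes that hold the middle 50% of tested protein-coding genes in each of 10 groups by coding length, with the group median as a dark line. The medians climb from -0.80 to 1.07, GOLGA4, TRIP11, GOLGB1, GOLGA2, GOLGA1 and GOLGA5 lie above the box of their group, and TMF1 lies on the median line of its group.

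The golgins shared a codon composition that the rule by name did not use. Codons for glutamate, lysine and glutamine together made up 25.7% (GOLGA5) to 39.4% (GOLGA4) of the coding sequence, with a median of 31.2% against 17.4% in all tested protein-coding genes. Glutamate alone had a median of 13.9% against 6.95%. Codons for proline, which breaks helices, had a median of 2.07% against 5.54%, and those for glycine 2.93% against 6.37%. Every golgin lay at the 93.0th percentile of protein-coding genes or above for the share of glutamate, lysine and glutamine codons. Over all 12534 genes this share had a Spearman rho of 0.37 with log2 fold change, and over the 3398 long genes one of 0.43. In the 10 golgins, the rho of log2 fold change with the share of glutamate codons alone was 0.54 (n = 10 genes).

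The choice of glutamate codon divided the golgins. GAA made up 6.78% to 11.8% of the codons of GOLGA1, GOLGA5, TRIP11, GOLGB1, TMF1, GOLGA4 and GCC2, against a median of 2.68% in all tested protein-coding genes. In the GC-rich GCC1 (2.58%), GOLGA2 (2.92%) and GOLGA3 (2.94%) it was near that median. Both kinds held enriched mRNAs, and each held 1 that was not called, TMF1 and GCC1.

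Runs of GAA were searched on the sense strand of the canonical transcripts. GAAGAA was present in all 10 golgins, in 82.4% of tested protein-coding genes and in 94.9% of the long ones, so its presence in the golgins is near the background. Its density had a median of 2.25 sites per kb in the golgins against 0.69 in all tested protein-coding genes. The longer run GAAGAAGAA, which contains GAAGAA, was present in 7 of 10 golgins, in 14.8% of tested protein-coding genes and in 26.4% of the long ones. With the longest transcript of each gene in place of the canonical one, it was present in 6 of 10, without GOLGA2. The opposite strand, read as TTCTTCTTC, had the run in none of the 10 and in 5.02% of genes.

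The GAAGAAGAA runs are shown for the 3 golgins with the highest fold changes and for GOLGA1. The runs shown are in frame as GAA codons in GOLGA4 and GOLGB1, and out of frame in TRIP11 and GOLGA1. Each line gives 45 bases of coding sequence within 1 exon, on the sense strand, with the run in capitals. They lie in exon 10 of GOLGA4 (chr3:37302221-37302265, plus strand), exon 20 of TRIP11 (chr14:91972732-91972776, minus strand), exon 20 of GOLGB1 (chr3:121667517-121667561, minus strand) and exon 3 of GOLGA1 (chr9:124938671-124938715, minus strand).
GOLGA4: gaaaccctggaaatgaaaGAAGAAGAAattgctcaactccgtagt
TRIP11: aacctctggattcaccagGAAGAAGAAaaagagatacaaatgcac
GOLGB1: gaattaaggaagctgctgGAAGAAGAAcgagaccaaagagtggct
GOLGA1: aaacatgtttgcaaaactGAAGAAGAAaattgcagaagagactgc
The canonical transcripts of the golgins held 16 such runs, 14 of them in coding sequence, and 9 of these were in frame as 3 GAA codons. GOLGB1 had 6, GOLGA4 had 3, GOLGA2 and TMF1 had 2 each, and GOLGA1, GOLGA3 and TRIP11 had 1. GOLGA5, GCC1 and GCC2 had none, and of these GOLGA5 and GCC2 were called enriched, while TMF1, with 2 runs, was not. Across the 10 golgins, log2 fold change had a Spearman rho of 0.55 with the number of GAAGAA sites (n = 10 genes). It was 0.38 in replicate 1 and 0.63 in replicate 2. With GAAGAA sites per kb the rho was 0.41 (0.18 in replicate 1 and 0.60 in replicate 2). A match of these letters is a description of the transcript, and binding at the runs was not measured in these libraries.

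Other genes share sequence or exons with some golgins, and the counting of reads with several alignments and of strand is not given in the sources used here. Of the 50-base words of the GCC2 transcript, 13.9% occur in another gene, chiefly the RGPD genes, copies that carry the GRIP domain of GCC2 on a part of the nuclear pore protein RANBP2. The RGPD copies together held 136 and 114 counts in the IP and 26 and 16 in the Input, and GCC2 held 921 and 864 in the IP and 374 and 149 in the Input. RGPD8 held most of them, and its log2 fold change was 2.25 ± 0.39 (SE, n = 2 per group, edgeR adjusted p = 0.013). GOLGA2 (1.72%), GOLGA3 (1.62%) and TRIP11 (1.54%) shared little, and the other 6 golgins shared no word.

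Exons of neighbouring genes overlap some golgins, and both such neighbours with many counts had negative estimates that were not called. GOLGA1 shares 14.6% of its exonic bases with SCAI on the same strand, and SCAI, a regulator of transcription, had a log2 fold change of -0.58 ± 0.22 (SE, n = 2 per group, edgeR adjusted p = 0.103). GCC1 shares 8.16% with ARF5, a small GTPase of the Golgi, on the opposite strand. ARF5 stood at -0.94 ± 0.22 (SE, n = 2 per group, edgeR adjusted p = 0.027), below the limit of size for a call. How far reads from ARF5 entered the count of GCC1 was not tested. FSCN3, RPS11P5, EOGT-DT, GOLGA4-AS1, GCC2-AS1 and CHFR, which also overlap a golgin, held at most 21 counts in any library. The GOLGA6 and GOLGA8 families, duplicated copies related to GOLGA2, make up 38 genes of the table, of which 3 were tested and none was called. They summed to 9.41 and 15.6 CPM in the IP and to 4.12 and 6.25 CPM in the Input.

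The golgins were compared with 144 other genes of the Golgi apparatus, of which 140 were tested. Of these, 20 were enriched and 18 depleted, with a median log2 fold change of 0.03. The shares were 14.3% enriched and 12.9% depleted, beside 10.5% and 8.3% of all tested genes, so the Golgi genes as a whole lay near the background. The 44 of these genes with a coding sequence at least as long as that of the shortest golgin held 17 enriched and no depleted genes, with a median of 0.79. That is 38.6% enriched, beside 30.2% and a median of 0.75 in all 3398 genes of at least that length. The 96 shorter ones held 3 enriched and 18 depleted genes (18.8% depleted), with a median of -0.32. Their coding sequences spanned 333 to 2169 bases. Over the groups by coding length in that range, the depleted share of all genes fell from 34.4% to 0.64%, and the enriched share lay between 1.42% and 14.9%.

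Of 16 other coiled-coil proteins of the Golgi, 8 were enriched and none depleted, with a median of 0.94. Their median coding length was 2790 bases. In the group by coding length that holds this value, 24.2% of 1250 genes were enriched, with a median of 0.64. AKAP9, a large scaffold that anchors protein kinase A and microtubule nucleation at the Golgi and centrosome, had the highest value, 2.18 ± 0.28 (SE, n = 2 per group, edgeR adjusted p = 0.011). GOPC, a short PDZ-domain protein of the trans-Golgi, had the lowest, -0.44 ± 0.25 (SE, n = 2 per group, edgeR adjusted p = 0.237).

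The small GTPases that recruit golgins, and their partners, lay on the other side. Of 18 tested, none was enriched and 8 were depleted, with a median of -0.94 and coding sequences of 468 to 687 bases. Of the 1177 tested protein-coding genes with a coding sequence in this range, 23.2% were depleted and 2.12% enriched, with a median of -0.60. ARF4, which acts in vesicle formation at the Golgi, had the lowest value, -1.88 ± 0.26 (SE, n = 2 per group, edgeR adjusted p = 0.011), and RAB8A the highest, 0.52 ± 0.30 (SE, n = 2 per group, edgeR adjusted p = 0.244). ARL1, which recruits the GRIP domain golgins, was also depleted, with a log2 fold change of -1.73. It was singled out after its value was seen.

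**Figure D5:**
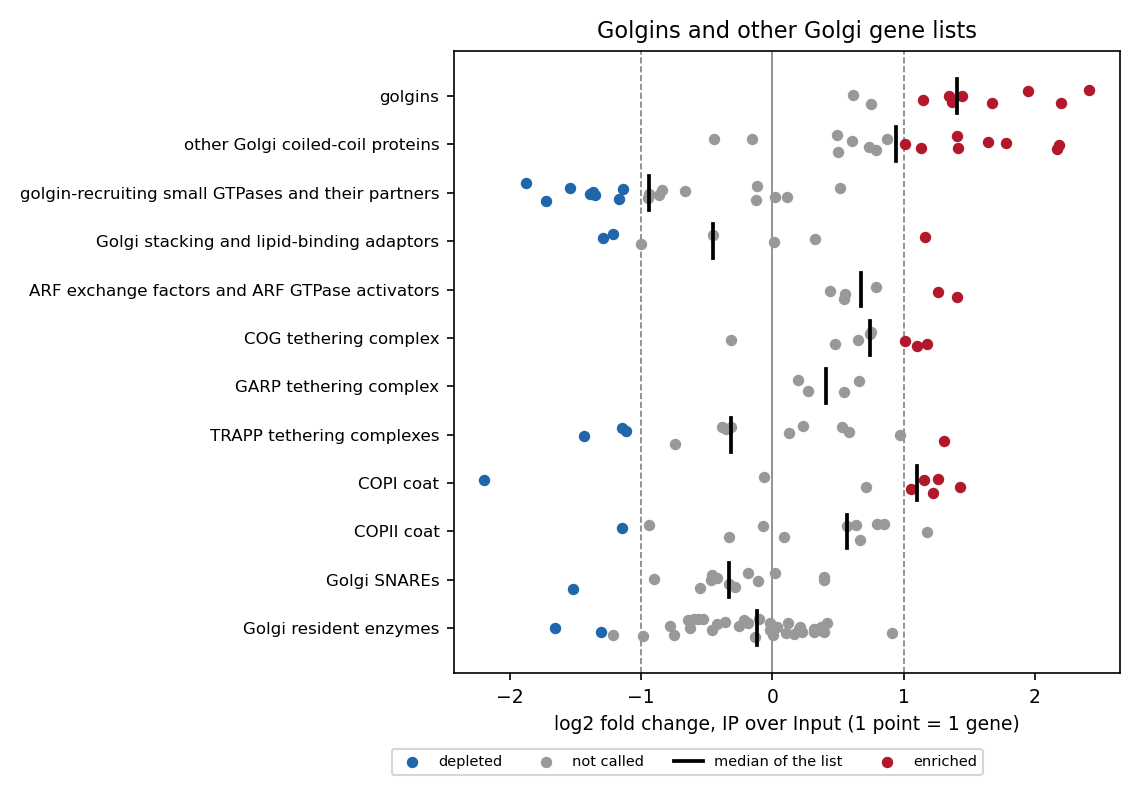
Each point is 1 tested gene, placed by its log2 fold change of IP over Input, red where enriched, blue where depleted and grey where not called, with a black bar at the median of each list. The golgins lie wholly above 0 with a median of 1.41, the other Golgi coiled-coil proteins centre on 0.94, and the small GTPases and their partners centre on -0.94.

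Among the complexes that work with golgins in tethering, COG had 3 of 8 enriched and a median of 0.75, from COG8 (-0.32 ± 0.23, SE, n = 2 per group) to COG7 (1.18 ± 0.23). GARP, a tether for endosome-derived vesicles, had none of 4 called and a median of 0.41, between VPS54 (0.20) and VPS52 (0.66). TRAPP, an activator of RAB1, had 1 enriched and 3 depleted of 13 tested and a median of -0.32. Its values ran from -1.43 in TRAPPC2, with 420 coding bases, to 1.31 in TRAPPC11, with 3399. The median coding lengths of COG and GARP, 2338.5 and 2421 bases, fall in a length group with 14.9% of genes enriched and a median of 0.45. That of TRAPP, 657 bases, falls in a group with 2.56% enriched, 18.6% depleted and a median of -0.52.

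The ARF exchange factors and ARF GTPase activators had 2 of 6 enriched, led by ARFGEF1 (1.41 ± 0.22, SE, n = 2 per group), and ARFGAP3 was the lowest at 0.44. The COPI coat had 5 of 8 tested enriched and 1 depleted, with a median of 1.11. ARCN1, its delta subunit, had the highest value (1.43), and COPZ1, its short zeta subunit, the lowest (-2.19). The COPII coat had none of 11 enriched and 1 depleted, SAR1B (-1.15), the GTPase that starts its assembly. SEC31B had the highest estimate there, 1.18 ± 0.68 (SE, n = 2 per group, edgeR adjusted p = 0.247). The median coding lengths of the ARF regulators (3459 bases), COPI (2617.5) and COPII (3096) fall in the same length group. Of its 1250 genes, 24.2% were enriched and 0.64% depleted, with a median of 0.64. Lengths within a list spread widely, in COPI from 531 to 3672 bases.

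The stacking and lipid-binding adaptors had 1 of 7 enriched, ACBD3 (1.17), which binds GOLGB1, and 2 depleted, of which GOLGA7 was the lowest (-1.29). GOLGA7 bears a golgin name but encodes a short partner of a palmitoyltransferase, with 411 coding bases, and it is no coiled-coil tether. The SNAREs of the Golgi, which fuse the vesicles that golgins capture, had none of 13 enriched and 1 depleted, BET1 (-1.52), with VTI1A the highest at 0.39. The resident glycosylation enzymes had none of 36 enriched and 2 depleted. B4GALT1, a galactosyltransferase, had the lowest value (-1.66), and MAN1B1, a mannosidase, the highest (0.91). The median coding lengths were 894 bases in the adaptors, 696 in the SNAREs and 1473 in the enzymes. The length groups that hold these values had 3.69%, 2.56% and 6.61% of genes enriched. Their depleted shares were 11.2%, 18.6% and 3.27%, in that order.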

How the data were processed

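RIP-seq libraries of ORC1-FLAG IP and nuclear Input (2 each) were analysed. The deposited values are raw read counts per gene. According to the submitters' processing notes and the study's methods, the authors trimmed reads with Trimmomatic, aligned them with STAR to hg19 and counted them with featureCounts. The annotation release, the strand setting and the handling of multiply aligned reads are not given in the sources used here. Reads carry no molecular identifiers. Library depth is given with the results and limits precision most in Input replicate 2.

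The test was the quasi-likelihood test of edgeR 4.0.16 in R 4.3.3, with robust dispersions and TMM scaling (factors 0.758, 0.868, 1.19 and 1.28 for IP replicates 1 and 2 and Input replicates 1 and 2). The filterByExpr function chose the genes, and the model held the group alone. SE was the log2 fold change divided by the root of the F statistic. Intervals of 2 SE are plain ranges without a stated coverage. Benjamini-Hochberg adjustment covered all 14645 genes. Replicate log2 ratios used CPM with a pseudocount of 0.5. Lengths, codons and motifs came from the GENCODE v44 canonical transcript, for coding sequences of at least 150 bases. Of the 63677 genes, 11496 had no identifier in that release.

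The replicate numbers name the precipitation in the labels, and libraries that share a number deviated together from their group means (Pearson r = 0.645 over genes), so the numbers were taken as pairs and a replicate block was an alternative. Further alternatives were RLE size factors, library size alone, upper quartile scaling, no count filter, a minimum of 1 CPM in 2 libraries, limma voom (limma 3.58.1), DESeq2 1.42.0, glmTreat, other pseudocounts, the longest transcript and leaving out each library.

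The golgins, the Golgi lists and the markers were chosen with earlier results of these data known. The genes named were all golgins, the highest and lowest tested gene of each Golgi list, and genes that share sequence or exons with a golgin. ORC1, the precipitated protein, and ARL1 were named besides, ARL1 after its value was seen. Counts of golgins and lists are descriptions, set beside the shares of all genes, and carry no test of their own. Protein sequences were not used here.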

Additional observations from a re-analysis of the deposited data

How the results depend on the processing

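Over the 13 alternatives, 130 log2 fold changes of golgins were computed and all 130 were above 0. Of these, 114 kept their side of the call, 15 lost a call and 1 gained one. The alternatives reuse the same libraries, and glmTreat repeats the main estimates under another test, so the values are not independent. The lowest was 0.04, in TMF1 with library size alone. Scaled by library size alone, 4 golgins and 4 other Golgi genes were enriched and 40 other Golgi genes depleted, in place of 8, 20 and 18, and the golgin median was 0.81. That scaling lowered the median of all genes to -0.59. Upper quartile scaling gave a golgin median of 1.25. Under glmTreat, which tests against the fold limit itself, 0 golgins and 0 other Golgi genes were called in either direction, and over all genes 0 were enriched and 1 depleted at an adjusted p below 0.05, while 1776 had an unadjusted p under 0.05. Leaving out 1 library in turn gave 6 to 9 enriched golgins, golgin medians of 1.23 to 1.57, 18 to 21 enriched and 11 to 26 depleted Golgi genes. The lowest count of golgins came without Input replicate 2, and the lowest count of depleted Golgi genes, 11, without ORC1-FLAG IP replicate 2. A group left with 1 library is assumed to vary like the other group. With the replicate block the enriched golgins numbered 8 and the golgin median was 1.42, and the block changed no golgin's call. GCC1 then passed the limit of adjusted p and missed only that of size. The block raised the enriched genes overall from 1542 to 1960 and the depleted from 1215 to 1957. Without a count filter and in DESeq2, in which 31990 genes entered, the golgins called also numbered 8. Other pseudocounts left all 40 replicate ratios above 0. The 2 libraries per group and the depth of Input replicate 2, 9213877 counts, limit what can be called at small folds. A comparison of protein identity between the golgins was not run.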
